A study of Homo sapiens with 6 samples.

Results

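Voltage-gated sodium and calcium channels were followed in 2 human neuroblastoma cell lines through the genes of their subunits. The members were the rows of the deposited count table whose gene symbol is that of a sodium channel alpha or beta subunit (SCN genes ending in A or B), a calcium channel alpha1 subunit (CACNA1), an alpha2delta subunit (CACNA2D), a beta subunit (CACNB) or a gamma-family protein (CACNG). The symbols alone chose them, with no measured value in the rule, and 40 of the 25370 rows qualified. They are 10 sodium channel alpha subunits, 4 sodium channel beta subunits, 10 calcium channel alpha1 subunits, 4 alpha2delta subunits, 4 calcium channel beta subunits and 8 gamma-family proteins.

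The series concerns LMO1, a transcriptional cofactor that acts with MYCN in neuroblastoma, a childhood tumour of the sympathetic lineage. Its 6 RNA sequencing libraries were Kelly cells (1 library), BE2C cells carrying forced LMO1 expression (2 libraries, LMO1 1 and LMO1 2), unmodified parental BE2C cells (1 library) and BE2C cells carrying the vector control (2 libraries, vector 1 and vector 2). BE2C and Kelly are established neuroblastoma lines with amplified MYCN, so every library carries that background, and BE2C is a cloned subline, so the LMO1 and vector libraries describe 1 clonal line. The promoter that drives LMO1 is not named in the labels. Nor do these state whether paired libraries derive from independent cultures; p-values therefore reflect library-to-library spread alone, possibly technical.

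Sodium channel alpha subunits are large pore proteins that open on depolarization and carry the rising phase of the action potential, and the small beta subunits are membrane proteins that tune gating and take part in cell adhesion. Calcium channel alpha1 subunits form the calcium pore and define the channel type (P/Q, N, R, L or T), the alpha2delta and cytosolic beta subunits bring the pore to the cell surface, and most gamma-family proteins other than those of muscle are known as partners of AMPA glutamate receptors. Sympathetic neurons and chromaffin cells use sodium channels to fire and N-type and L-type calcium channels to release catecholamines.

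Total counts per library were 59512958 in Kelly, 18737591 and 22426978 with LMO1, 48663459 in parental BE2C, and 21946052 and 25070942 with vector. Levels are counts scaled to the library total (CPM) with TMM, a between-library correction, over all 6 libraries. For a gene with 0 counts the level could still reach that of 3 counts, namely 0.0503 CPM in Kelly, 0.157 and 0.132 CPM in the LMO1 libraries, 0.0628 CPM in parental BE2C, and 0.137 and 0.121 CPM in the vector libraries. LMO1 itself had 94.1 CPM in Kelly, 6.55 and 5.85 CPM in the LMO1 libraries, 1.93 CPM in parental BE2C, and 1.05 and 0.926 CPM in the vector libraries. With LMO1 it was higher than with vector by a log2 fold change of 2.65 (SE 0.27, adjusted p = 3.46e-11), and the libraries of the 2 groups did not overlap. The sympathetic neuroblastoma markers, among them PHOX2A, HAND2, GATA3, ISL1 and MYCN, were read in every library. Their summed levels were 3350 CPM in Kelly, 2294 and 2218 CPM with LMO1, 2470 CPM in parental BE2C, and 2353 and 2346 CPM with vector. MYCN made up most of each sum, at 2066 CPM in Kelly and 1636 and 1558 CPM with LMO1. It had 1612 CPM in parental BE2C, and 1651 and 1666 CPM with vector. Between LMO1 and vector, ISL1 was higher and HAND2 and GATA3 were lower, at log2 fold changes of 0.27, -0.17 and -0.23 (adjusted p below 0.05 in edgeR). The parental library stood apart from the vector libraries: 8.11% of 14384 genes compared were at least 2-fold higher in it and 2.88% at least 2-fold lower. RNA was measured in bulk, so more cells expressing a gene and more RNA per cell cannot be told apart.

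The stretches before the start sites of 6 of the pore genes are shown because these genes span the range of the results: SCN1A and CACNA1C were read almost only in Kelly, SCN9A and SCN8A had the most reads of the sodium channel alpha genes in BE2C, and SCN2A and CACNA1B were higher with LMO1. Each is the 250 bases before a start in the RefSeq promoter table (build GRCh38.p14), printed 5′ to 3′ on the strand of the gene, and capitals mark every CG dinucleotide, the site of cytosine methylation in human DNA. They lie at chr2:166128021-166128270 (minus strand) and chr2:166149162-166149411 (minus strand) for the starts of SCN1A, chr2:165239164-165239413 (plus strand) for the first start of SCN2A, chr2:166375945-166376194 (minus strand) for SCN9A, chr12:51590983-51591232 (plus strand) for SCN8A, chr9:137877532-137877781 (plus strand) for CACNA1B and chr12:2052737-2052986 (plus strand) for CACNA1C.
SCN1A start 1: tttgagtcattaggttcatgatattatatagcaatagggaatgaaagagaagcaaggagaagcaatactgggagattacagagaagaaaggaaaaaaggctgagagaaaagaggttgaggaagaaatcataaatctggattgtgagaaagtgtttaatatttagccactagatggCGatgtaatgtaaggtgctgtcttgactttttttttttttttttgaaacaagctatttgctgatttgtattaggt
SCN1A start 2: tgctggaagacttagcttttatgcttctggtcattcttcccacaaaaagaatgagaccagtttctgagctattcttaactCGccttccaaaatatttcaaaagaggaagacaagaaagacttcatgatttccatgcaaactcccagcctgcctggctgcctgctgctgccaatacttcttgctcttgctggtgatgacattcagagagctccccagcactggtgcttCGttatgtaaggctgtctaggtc
SCN2A start 1: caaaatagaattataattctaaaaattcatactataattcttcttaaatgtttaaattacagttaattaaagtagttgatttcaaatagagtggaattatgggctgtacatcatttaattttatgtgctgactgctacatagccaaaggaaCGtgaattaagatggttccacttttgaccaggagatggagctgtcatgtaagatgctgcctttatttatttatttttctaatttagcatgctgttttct
SCN9A: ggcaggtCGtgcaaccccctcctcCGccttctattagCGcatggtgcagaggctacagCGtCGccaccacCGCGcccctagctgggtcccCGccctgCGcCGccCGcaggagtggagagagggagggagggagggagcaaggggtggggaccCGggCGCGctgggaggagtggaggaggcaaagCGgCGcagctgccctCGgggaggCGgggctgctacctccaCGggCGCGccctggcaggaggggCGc
SCN8A: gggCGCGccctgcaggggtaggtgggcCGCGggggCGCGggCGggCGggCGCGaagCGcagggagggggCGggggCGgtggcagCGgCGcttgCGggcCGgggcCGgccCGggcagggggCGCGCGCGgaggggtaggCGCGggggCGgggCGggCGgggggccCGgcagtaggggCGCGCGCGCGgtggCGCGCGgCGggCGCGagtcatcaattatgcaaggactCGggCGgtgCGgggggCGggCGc
CACNA1B: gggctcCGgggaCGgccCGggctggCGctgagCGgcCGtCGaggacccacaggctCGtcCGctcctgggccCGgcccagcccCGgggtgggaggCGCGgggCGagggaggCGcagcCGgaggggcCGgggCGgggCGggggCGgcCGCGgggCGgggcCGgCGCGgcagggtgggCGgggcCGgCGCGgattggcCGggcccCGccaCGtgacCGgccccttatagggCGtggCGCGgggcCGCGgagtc
CACNA1C: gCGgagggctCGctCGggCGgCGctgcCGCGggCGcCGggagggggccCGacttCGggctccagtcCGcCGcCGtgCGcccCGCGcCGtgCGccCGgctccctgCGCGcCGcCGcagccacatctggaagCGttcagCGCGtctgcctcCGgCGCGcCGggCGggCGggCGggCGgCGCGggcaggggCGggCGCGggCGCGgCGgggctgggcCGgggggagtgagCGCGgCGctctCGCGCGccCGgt

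The capitals set these windows apart by eye. The SCN1A windows held 1 and 2 CG dinucleotides and the SCN2A window 1, against 22 for SCN9A, 45 for SCN8A, 39 for CACNA1B and 51 for CACNA1C. The median of all 35116 promoters in the table was 11, with a median GC content of 58%, against 33.6% and 45.6% in SCN1A, 29.2% in SCN2A, 74.0% in SCN9A, 85.2% in CACNA1B and 85.6% in both SCN8A and CACNA1C. SCN1A and CACNA1C, whose levels between the lines followed the same pattern, thus lie at opposite ends of CG content. The E-box motif CANNTG, which reads the same on both strands, is in 61.8% of all promoters and its MYC-type form CACGTG, a subset of it, in 6.35%. CACGTG was found once among these 7 windows, in CACNA1B. The windows of CACNA1B and CACNA1C are RefSeq starts whose next bases were not found in a GENCODE transcript of the gene. In all, 26 of the 40 members matched the table, with 40 starts.

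Of the 40 members, 30 had at least 1 CPM in some library, and 24 did so in Kelly, 22 and 23 in the LMO1 libraries, 23 in parental BE2C, and 21 in each vector library. Their summed level was 1340 CPM in Kelly, 778 and 786 CPM with LMO1, 1345 CPM in parental BE2C, and 671 and 677 CPM with vector. Kelly and parental BE2C reached like sums with different genes. Under 1 CPM in every library were CACNA1A (P/Q-type), CACNA1E (R-type), CACNA1F (the retinal L-type pore), CACNA1S (the L-type pore of skeletal muscle), CACNA2D4, CACNG1, CACNG3, CACNG6, SCN2B and SCN10A (a sodium channel of pain-sensing neurons). SCN10A had 0 counts in all 6 libraries, which allows a level up to the floors given above.

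**Figure D1:**
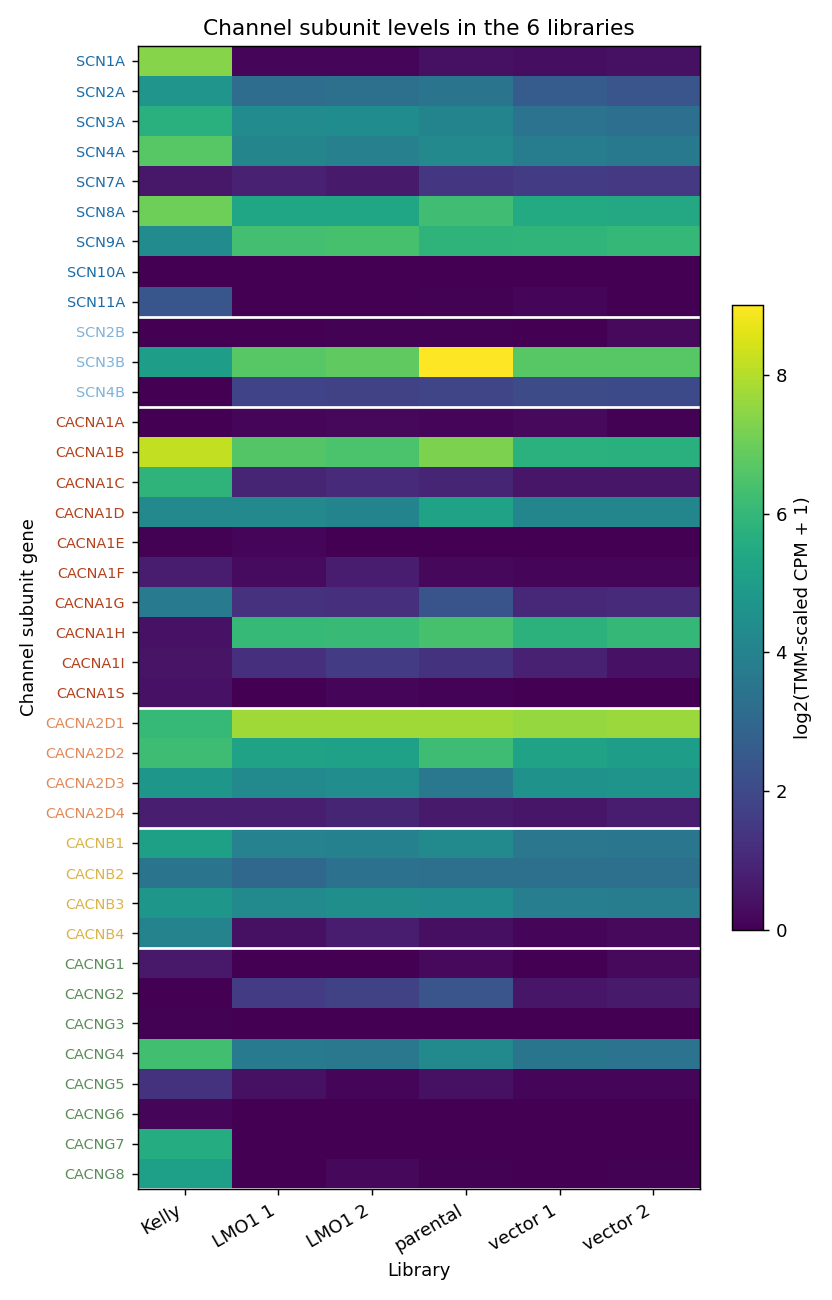
Levels of 38 channel genes (rows, grouped by subunit class with white lines between the classes) in the 6 libraries (columns), as log2 of TMM-scaled CPM with 1 CPM added. SCN1A, CACNA1C, CACNG7 and CACNG8 are bright in Kelly alone, CACNA1H is dark in Kelly alone, and SCN3B is brightest in parental BE2C.

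The first question was which channel genes differ between BE2C cells with forced LMO1 and BE2C cells with vector, the one comparison with 2 libraries on each side. Relative to vector, 11 channel genes rose with LMO1 and 3 fell. Of the 11 that rose, the 1 parental library lay above both vector libraries for 10 and above both LMO1 libraries for 6. The calls used these same vector libraries, so genes called higher are prone to low vector values. These counts therefore do not place the unmodified line, and the shares among all genes called higher were not computed. The genes that rose include the pore genes SCN2A, SCN3A, SCN9A and CACNA1B, and those that fell include SCN7A and CACNA2D3. Of the 40 members, 25 passed the filter on low counts and were tested, and the remaining 15 had at most 0.616 CPM in these 4 libraries. Calls required an adjusted p under 0.05 (edgeR, Benjamini-Hochberg over 15480 genes). The called members were 44% (higher) and 12% (lower) of those tested, beside 15.9% and 15.1% of all genes tested. The median log2 fold change was 0.25 over the 25 members and 0.00083 over all genes. In all 14 called genes the LMO1 and vector libraries did not overlap. That adds nothing to the calls, since CACNA1C, SCN3B, SCN8A and other genes not called did not overlap either. The share without overlap among all genes was not computed. DESeq2 called 7 channel genes higher, and without LMO1 2 edgeR called 1 lower.

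Markers of other cell types were read beside these results. Fibroblast markers summed to 57.8 and 58.6 CPM in the LMO1 libraries, against 30.9 and 33.7 CPM in the vector libraries. Of the 5 genes of that list 4 were tested and 2, DCN and LUM, were higher with LMO1, while COL1A2 was at 0 in both LMO1 libraries and in vector 1. Cardiac muscle markers summed to 5.18 and 3.52 CPM with LMO1 and 8.20 and 8.17 CPM with vector, with 1 of 1 tested lower and NKX2-5 at 0 in all 6 libraries. Skeletal muscle markers summed to 4.24 and 3.04 CPM with LMO1 and 4.31 and 5.84 CPM with vector, with 1 of 2 tested lower and MYOG at 0 in LMO1 2, vector 1 and vector 2. Schwann and glial markers summed to 3.88 and 5.59 CPM with LMO1 and 2.93 and 3.94 CPM with vector, with 1 of 3 tested higher. Blood markers summed to at most 9.34 CPM and endothelial markers to at most 1.65 CPM in any of the 4 libraries, with CD3E at 0 in all and PECAM1 at 0 in all but vector 2. CDH5, the 1 endothelial marker tested, was lower with LMO1, at 0.209 and 0.308 CPM with LMO1 and 1.10 and 1.61 CPM with vector (log2 fold change -2.35, adjusted p = 0.000604). The part of these markers in the channel results was not tested.

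**Figure D2:**
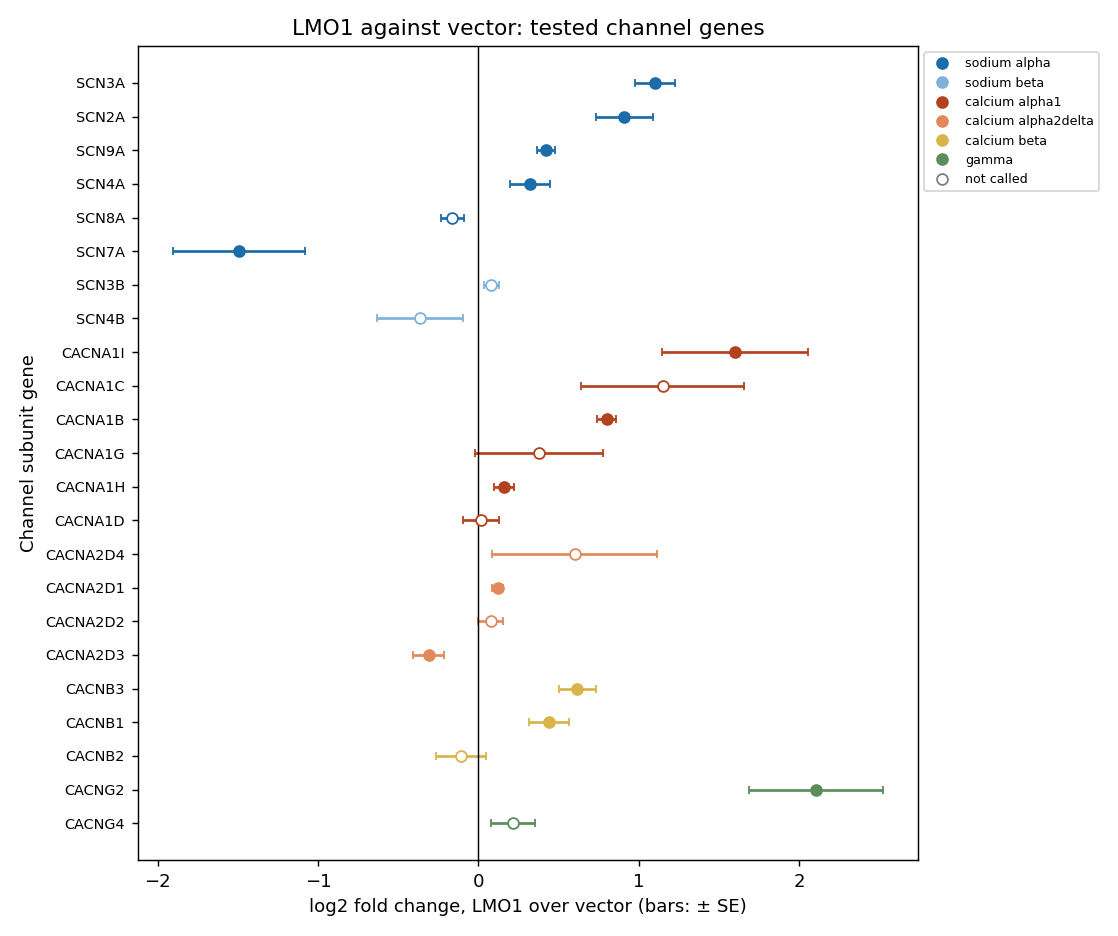
Log2 fold changes of LMO1 over vector BE2C (x axis, bars ± SE, n = 2 libraries each) for 23 tested channel genes (y axis), coloured by subunit class, with open circles for genes not called. SCN3A, CACNA1I and CACNG2 lie at 1.10, 1.60 and 2.10, and SCN7A lies at -1.49.

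Among the sodium channel alpha genes, 4 of 7 tested rose with LMO1, with a median log2 fold change of 0.32 over the 7. SCN3A had 52.2 CPM in Kelly, 19.6 and 19.8 CPM in the LMO1 libraries, 15.9 CPM in parental BE2C, and 9.76 and 8.73 CPM in the vector libraries. The level of SCN2A was 24.8 CPM in Kelly, 8.33 and 9.02 CPM with LMO1, 10.2 CPM in parental BE2C, and 5.18 and 4.15 CPM with vector. SCN3A is the sodium channel of the embryonic brain and SCN2A that of early axons and excitatory neurons. The LMO1 libraries lay above the vector libraries for both, and parental BE2C lay between the groups for SCN3A and above both for SCN2A. The log2 fold change was 1.10 for SCN3A (SE 0.123, adjusted p = 4.86e-10), with means of 19.7 ± 0.158 CPM with LMO1 and 9.25 ± 0.726 CPM with vector (SD, n = 2 each). For SCN2A it was 0.91 (SE 0.177, adjusted p = 5.74e-05), with means of 8.67 ± 0.493 CPM with LMO1 and 4.66 ± 0.730 CPM with vector (SD, n = 2 each).

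For SCN9A the libraries held 19.6 CPM in Kelly, 79.4 and 82.1 CPM with LMO1, 57.1 CPM in parental BE2C, and 58.2 and 63.03 CPM with vector. SCN8A had 128 CPM in Kelly, 38.1 and 39 CPM in the LMO1 libraries, 74.7 CPM in parental BE2C, and 44.95 and 41.9 CPM in the vector libraries. SCN9A is the main sodium channel of sympathetic and pain-sensing neurons, and SCN8A that of mature axon initial segments and nodes. The LMO1 libraries were the highest of the 6 for SCN9A and the lowest for SCN8A, and parental BE2C was just below the vector libraries for SCN9A and well above all other BE2C libraries for SCN8A. SCN9A rose with LMO1 by a log2 fold change of 0.42 (SE 0.058, adjusted p = 8.13e-08). SCN8A had a log2 fold change of -0.16 (SE 0.0737, adjusted p = 0.0906) and was not called.

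The level of SCN4A was 101 CPM in Kelly, 16.2 and 14.2 CPM with LMO1, 18.1 CPM in parental BE2C, and 12.97 and 11.5 CPM with vector. SCN7A had 0.503 CPM in Kelly, 0.785 and 0.572 CPM in the LMO1 libraries, 1.72 CPM in parental BE2C, and 2.02 and 1.81 CPM in the vector libraries. SCN4A is the sodium channel of skeletal muscle and SCN7A an atypical channel linked to sodium sensing. SCN4A stood slightly above vector with LMO1, whereas SCN7A stood below it, with parental BE2C near the vector level for SCN7A. The log2 fold change was 0.32 for SCN4A (SE 0.125, adjusted p = 0.0463) and -1.49 for SCN7A (SE 0.412, adjusted p = 0.00411). The call of SCN4A was lost with DESeq2 (adjusted p = 0.192), without LMO1 1 (0.292) and without vector 2 (0.318), over a range of 0.0303 to 0.318 in the 12 alternatives. That of SCN7A was lost without LMO1 2 alone, at adjusted p = 0.0850, the highest of a range that began at 0.00193.

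The level of SCN1A was 167 CPM in Kelly, 0.105 and 0.088 CPM with LMO1, 0.314 CPM in parental BE2C, and 0.275 and 0.322 CPM with vector. For SCN11A the libraries held 4.30 CPM in Kelly, 0 and 0 CPM with LMO1, 0.0419 CPM in parental BE2C, and 0.0916 and 0 CPM with vector. SCN1A, the channel of inhibitory interneurons, and SCN11A, that of pain-sensing neurons, were at 0.322 CPM or less in every BE2C library and were not tested there. Only Kelly read them above 1 CPM.

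The sodium channel beta genes SCN3B and SCN4B were tested, and neither was called in edgeR. SCN3B had 31.5 CPM in Kelly, 102 and 110.2 CPM in the LMO1 libraries, 515 CPM in parental BE2C, and 101 and 100.5 CPM in the vector libraries. For SCN4B the libraries held 0 CPM in Kelly, 2.51 and 2.33 CPM with LMO1, 2.66 CPM in parental BE2C, and 3.25 and 3.02 CPM with vector. SCN3B associates with the pore without a covalent bond, and SCN4B and SCN2B are linked to it by a disulfide bridge. Parental BE2C was far above the other libraries for SCN3B, and Kelly was the lowest for both genes. Between LMO1 and vector the log2 fold change was 0.08 for SCN3B (SE 0.0485, adjusted p = 0.219) and -0.37 for SCN4B (adjusted p = 0.329). Neither had an unadjusted p below 0.05, and DESeq2 and limma-voom called 0 of them.

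Among the calcium channel alpha1 genes, 3 of 6 tested rose with LMO1 and 3 were not called, with a median log2 fold change of 0.59. CACNA1B had 287 CPM in Kelly, 94.9 and 87.6 CPM in the LMO1 libraries, 151 CPM in parental BE2C, and 53.2 and 52.1 CPM in the vector libraries. This gene encodes the N-type pore, which triggers noradrenaline release from sympathetic nerve endings. The LMO1 libraries lay above the vector libraries, and parental BE2C and Kelly lay above both. Means were 91.3 ± 5.16 CPM with LMO1 and 52.6 ± 0.731 CPM with vector (SD, n = 2 each), a log2 fold change of 0.80 (SE 0.058, adjusted p = 8.53e-16), the lowest adjusted p of any channel gene.

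The level of CACNA1H was 0.369 CPM in Kelly, 65.4 and 65.5 CPM with LMO1, 82.01 CPM in parental BE2C, and 54.7 and 62.8 CPM with vector. For CACNA1I the libraries held 0.403 CPM in Kelly, 1.36 and 2.02 CPM with LMO1, 1.51 CPM in parental BE2C, and 0.779 and 0.362 CPM with vector. CACNA1G had 12.6 CPM in Kelly, 1.47 and 1.36 CPM in the LMO1 libraries, 4.06 CPM in parental BE2C, and 1.01 and 1.17 CPM in the vector libraries. These are the 3 T-type pores, which open at small depolarizations. CACNA1H was high in all BE2C libraries and almost unread in Kelly, CACNA1G was highest in Kelly, and CACNA1I was at 2.02 CPM or less throughout. With LMO1 the log2 fold change was 1.60 for CACNA1I (SE 0.453, adjusted p = 0.00518), 0.16 for CACNA1H (SE 0.0635, adjusted p = 0.0492) and 0.38 for CACNA1G (adjusted p = 0.517, not called). The call of CACNA1I was lost without LMO1 2 (adjusted p = 0.154), without vector 2 (0.131) and with DESeq2 (0.05004), over a range of 0.00192 to 0.154. Its log2 fold change was 2.22 without vector 1, 1.13 without vector 2, 1.84 without LMO1 1 and 1.27 without LMO1 2. That of CACNA1H held under 5 of 12 alternatives, over a range of 0.00876 to 0.609, and was lost without LMO1 1 (0.173), without LMO1 2 (0.182) and without vector 1 (0.609), where its log2 fold change was 0.07.

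The level of CACNA1D was 18.1 CPM in Kelly, 17.7 and 15.6 CPM with LMO1, 35.2 CPM in parental BE2C, and 16.4 and 16.5 CPM with vector. For CACNA1C the libraries held 57.8 CPM in Kelly, 0.89 and 1.10 CPM with LMO1, 0.9 CPM in parental BE2C, and 0.458 and 0.443 CPM with vector. Both are L-type pores, CACNA1D that of neuroendocrine cells and pacemaking neurons and CACNA1C the cardiac and neuronal form. CACNA1D was at one level in the LMO1 and vector libraries and higher in parental BE2C. CACNA1C was near or below 1 CPM in all BE2C libraries. Neither was called between LMO1 and vector, at log2 fold changes of 0.02 (adjusted p = 0.929) for CACNA1D and 1.15 (SE 0.508, adjusted p = 0.0809) for CACNA1C. A fit over all 6 libraries called CACNA1C higher at adjusted p = 0.0156, the lowest of a range that reached 0.336.

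All 4 alpha2delta genes were tested: 1 rose with LMO1, 1 fell and 2 were not called, with a median log2 fold change of 0.10. CACNA2D1 had 64.4 CPM in Kelly, 212 and 213 CPM in the LMO1 libraries, 208 CPM in parental BE2C, and 193 and 199 CPM in the vector libraries. The level of CACNA2D2 was 73.2 CPM in Kelly, 35.4 and 34.9 CPM with LMO1, 73.5 CPM in parental BE2C, and 35.2 and 31.8 CPM with vector. For CACNA2D3 the libraries held 26.4 CPM in Kelly, 18.4 and 20.2 CPM with LMO1, 11.2 CPM in parental BE2C, and 23.9 and 24.4 CPM with vector. CACNA2D1 and CACNA2D2 are the binding sites of gabapentin-type drugs, and CACNA2D3 is a form that does not bind them. CACNA2D1 had the most reads of any channel gene in the LMO1 and vector libraries, and parental BE2C lay below both groups for CACNA2D3. With LMO1 the log2 fold change was 0.12 for CACNA2D1 (SE 0.0362, adjusted p = 0.00869), -0.31 for CACNA2D3 (SE 0.0983, adjusted p = 0.0126) and 0.08 for CACNA2D2 (adjusted p = 0.516). CACNA2D4 stayed below 1 CPM and was not called (log2 fold change 0.60, adjusted p = 0.412). The call of CACNA2D1 was lost without vector 1 (adjusted p = 0.153) and with DESeq2 (0.0558), over a range of 0.00163 to 0.153, and that of CACNA2D3 without LMO1 1 (0.0854), without vector 2 (0.0711) and with DESeq2 (0.0775), over a range of 0.00641 to 0.0854.

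Of the calcium channel beta genes, 2 of 3 tested rose with LMO1 and 1 was not called, with a median log2 fold change of 0.44. CACNB3 had 26.5 CPM in Kelly, 18.6 and 21.6 CPM in the LMO1 libraries, 19.6 CPM in parental BE2C, and 13.4 and 13.04 CPM in the vector libraries. The level of CACNB1 was 33.6 CPM in Kelly, 14.8 and 14.5 CPM with LMO1, 19.01 CPM in parental BE2C, and 11.04 and 10.6 CPM with vector. CACNB3 is a neuronal beta subunit that pairs with N-type pores, and CACNB1 is the form known from skeletal muscle and brain. Both rows put the LMO1 libraries between the vector libraries and Kelly. Parental BE2C lay above the LMO1 libraries for CACNB1 and between them for CACNB3. The log2 fold change was 0.62 for CACNB3 (SE 0.114, adjusted p = 2.54e-05) and 0.44 for CACNB1 (SE 0.127, adjusted p = 0.00608). The CACNB1 call was lost without vector 2 alone, at adjusted p = 0.0518, the highest of a range that began at 0.00297. For CACNB2 the libraries held 9.99 CPM in Kelly, 7.28 and 9.24 CPM with LMO1, 8.98 CPM in parental BE2C, and 8.94 and 9.06 CPM with vector. CACNB4 had 15.2 CPM in Kelly, 0.314 and 0.616 CPM in the LMO1 libraries, 0.293 CPM in parental BE2C, and 0.0916 and 0.161 CPM in the vector libraries. CACNB2, the main beta subunit of the heart, differed little between libraries (log2 fold change -0.11, adjusted p = 0.647, not called). CACNB4, a brain form, was below 1 CPM in every BE2C library and was not tested. It had 6 and 14 counts with LMO1 and 2 and 4 with vector. A fit over all 6 libraries, whose filter also counts the Kelly reads, called it higher with LMO1. Without the low-count filter, edgeR on the LMO1 and vector libraries did not call it (adjusted p = 0.221).

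Of the 8 gamma-family genes, 2 were tested and 1 of them rose with LMO1. The level of CACNG2 was 0 CPM in Kelly, 2.04 and 2.38 CPM with LMO1, 4.19 CPM in parental BE2C, and 0.458 and 0.563 CPM with vector. For CACNG4 the libraries held 76.7 CPM in Kelly, 12.2 and 11.2 CPM with LMO1, 18.7 CPM in parental BE2C, and 10.4 and 9.86 CPM with vector. CACNG2 encodes stargazin, and both proteins are AMPA receptor partners. CACNG2 was above 2 CPM in the LMO1 and parental libraries, under 1 CPM with vector and at 0 counts in Kelly. Its means were 2.21 ± 0.237 CPM with LMO1 and 0.511 ± 0.0744 CPM with vector (SD, n = 2 each), a log2 fold change of 2.10 (SE 0.418, adjusted p = 8.01e-05). CACNG4 was not called (log2 fold change 0.22, adjusted p = 0.241). CACNG7 had 46.9 CPM in Kelly, 0 and 0 CPM in the LMO1 libraries, 0.0209 CPM in parental BE2C, and 0 and 0 CPM in the vector libraries. The level of CACNG8 was 33.3 CPM in Kelly, 0 and 0.132 CPM with LMO1, 0.0419 CPM in parental BE2C, and 0 and 0.0402 CPM with vector. For CACNG5 the libraries held 1.53 CPM in Kelly, 0.314 and 0.088 CPM with LMO1, 0.335 CPM in parental BE2C, and 0.0916 and 0.0805 CPM with vector. These 3 genes were at 0.335 CPM or less in every BE2C library and above 1 CPM in Kelly alone.

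Partners of the channels were read as 5 lists, whose counts stand beside 15.9% higher and 15.1% lower among all genes tested. Of 18 sodium channel partners, all tested, 8 rose with LMO1 (44.4%) and 1 fell (5.56%), with a median log2 fold change of 0.25. FGF13, a cytosolic factor that binds the tail of sodium channels, had 7.02 and 5.99 CPM in the LMO1 libraries and 1.65 and 1.89 CPM in the vector libraries, with no overlap, and its log2 fold change was 1.87 (SE 0.236, adjusted p = 1.07e-08). It had 117 CPM in Kelly and 4.90 CPM in parental BE2C. The calmodulin gene CALM2 rose by a log2 fold change of 0.27 (adjusted p = 3.03e-14), and the adhesion gene CNTN1 had a log2 fold change of -0.33 (adjusted p = 5.22e-13). Of 22 calcium channel partners 17 were tested, 10 rose (58.8%) and 2 fell (11.8%), with a median of 0.17. STAC2, an adaptor of L-type channels, had 8.59 and 7.31 CPM with LMO1 and 2.15 and 2.37 CPM with vector, a log2 fold change of 1.81 (SE 0.213, adjusted p = 1.96e-09). DPYSL2, a binding partner of N-type channels, RIMBP2, a scaffold that ties calcium channels to release sites, and SNAP25, a SNARE protein, rose by log2 fold changes of 0.29, 0.41 and 0.51 (adjusted p = 9.71e-12, 5.15e-08 and 3.35e-06).

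Genes of calcium release from internal stores were a further list, of which 12 of 13 were tested, 7 rose (58.3%) and 1 fell (8.33%), with a median log2 fold change of 0.77. JPH3, a junctophilin that holds the endoplasmic reticulum to the plasma membrane, had 12.6 and 12.5 CPM with LMO1 and 3.53 and 3.34 CPM with vector, a log2 fold change of 1.88 (SE 0.168, adjusted p = 6.96e-13). The release channels RYR3 and ITPR3 rose by log2 fold changes of 1.38 and 1.05 (adjusted p = 1.64e-09 and 3.49e-13), and JPH1 by 2.10 (adjusted p = 0.00083). Of 14 genes of the sodium leak channel and other cation channels 8 were tested and 1 was called: UNC79, a subunit of the leak channel complex, fell with LMO1 (log2 fold change -0.36, adjusted p = 3.84e-08). REST is a repressor of neuronal genes, sodium channel genes among them, outside neurons. Of its 11 complex genes 1 (SIN3A) rose and 3 (RCOR1, SMARCA4 and EHMT2) fell, with log2 fold changes of 0.23, -0.26, -0.12 and -0.18 (adjusted p = 0.00552, 4.88e-05, 0.00647 and 0.00903). The list's 9.09% higher and 27.3% lower are 4 genes of 11, near the 31.0% called in either direction among all genes. REST itself was not called (log2 fold change -0.17, adjusted p = 0.404).

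The second question was how the channel genes of Kelly differ from those of parental BE2C, with 1 library on each side and no replicate check. Kelly had more RNA of several sodium channel pores and of CACNA1C, CACNB4, CACNG4, CACNG7 and CACNG8, and less of the sodium channel beta genes SCN3B and SCN4B, of CACNA1H, CACNA2D1, SCN9A and CACNG2. Ratios of log2(CPM + 1) were read where 1 or both libraries reached 1 CPM, a scale that understates the change of low genes, and 30 channel genes entered. Of these, 13 were at least 2-fold higher in Kelly (43.3%) and 7 at least 2-fold lower (23.3%), beside 15.9% and 13.4% of the 15013 genes compared. With 5 CPM added, 4 were at least 2-fold lower. The median log2 ratio was 0.86 over the 30 members and -0.01 over all genes. Fibroblast markers went both ways: DCN had 0.201 CPM in Kelly, against 102 CPM in parental BE2C, and COL1A1 had 57.9 CPM in Kelly, against 7.60 CPM in parental BE2C, within sums of 65.2 CPM in Kelly and 131 CPM in parental BE2C. Skeletal muscle markers summed to 10.1 CPM in Kelly and 4.81 CPM in parental BE2C. Most of the Kelly sum was MYH3 (8.02 CPM in Kelly, 1.74 CPM in parental BE2C). MYOD1 and MYOG were also higher in Kelly, and DES and CKM were lower. Cardiac markers summed to 5.50 CPM in Kelly and 10.2 CPM in parental BE2C. Most of each sum was TNNT2 (4.51 CPM in Kelly, 10.1 CPM in parental BE2C), while MYH6 and MYH7 were higher in Kelly. The part of the fibroblast and muscle markers in the channel results was not tested. Intervals on the ratios below are exact 95% intervals and cover counting error only.

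**Figure D3:**
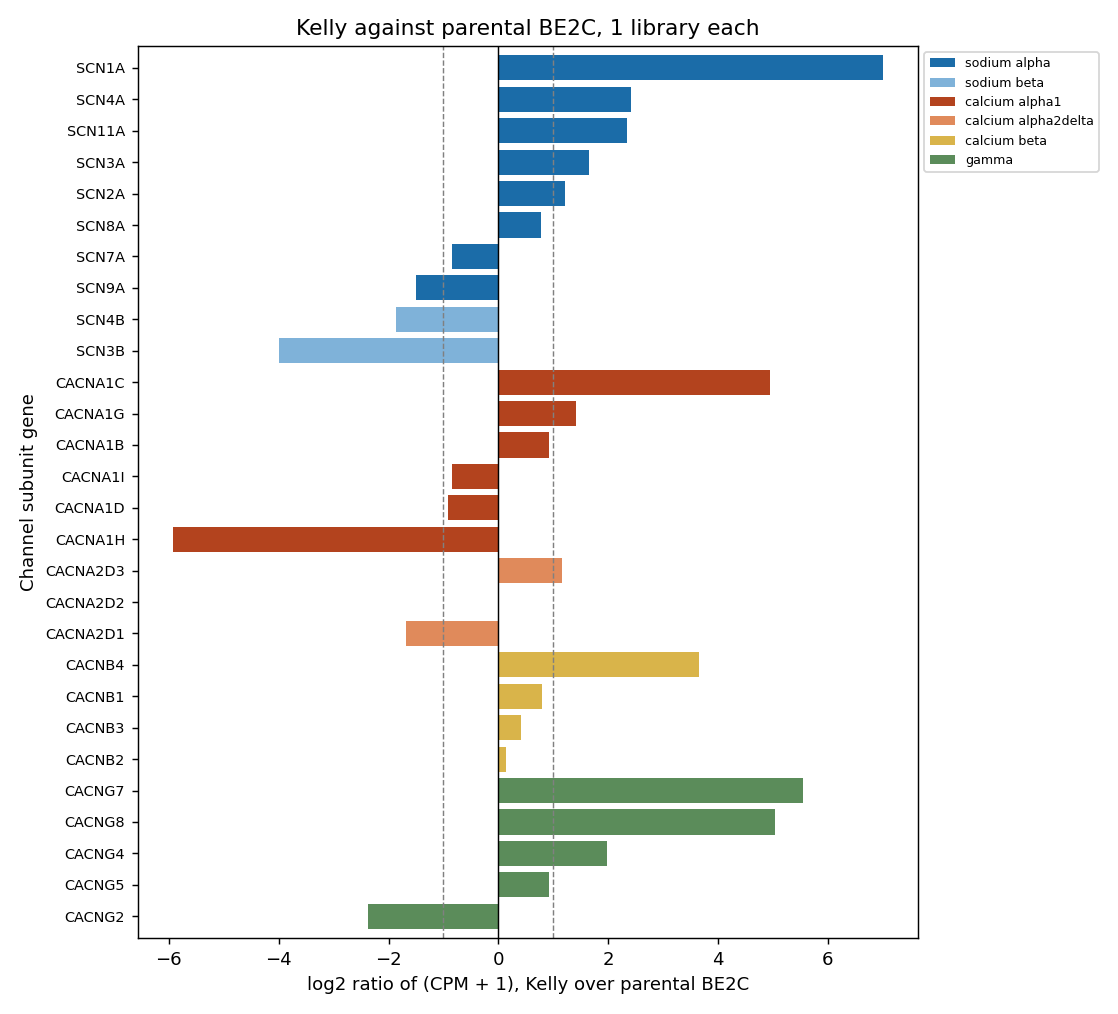
Log2 ratio of (CPM + 1) in Kelly over parental BE2C (x axis, 1 library each, no error bars) for 28 channel genes compared (y axis), coloured by subunit class, with dashed lines at 2-fold. SCN1A, CACNG7, CACNG8 and CACNA1C reach furthest to the right and CACNA1H and SCN3B furthest to the left.

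Of the sodium channel alpha genes, SCN1A, SCN11A, SCN4A, SCN3A and SCN2A were at least 2-fold higher in Kelly and SCN9A was lower. SCN1A had 9941 counts in Kelly and 15 in parental BE2C, a scaled ratio of 531 (322 to 949.8). SCN11A had 256 counts in Kelly and 2 in parental BE2C, a ratio of 103 (28.1 to 852). The wide intervals follow from the few parental counts. SCN4A was 5.58-fold higher (5.19 to 5.996), SCN3A 3.29-fold (3.04 to 3.57) and SCN2A 2.44-fold (2.20 to 2.71). SCN8A stayed within 2-fold at a ratio of 1.71 (1.65 to 1.78). SCN9A was 2.91-fold lower in Kelly (2.72 to 3.12), the one alpha gene past 2-fold in that direction on the scale with 1 CPM added. SCN7A, with 30 counts in Kelly and 82 in parental BE2C, was 3.41-fold lower by counts (2.22 to 5.37). With 1 CPM added SCN7A stayed within 2-fold.

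The sodium channel beta genes SCN3B and SCN4B were both lower in Kelly. SCN3B had 1874 counts in Kelly and 24607 in parental BE2C and was 16.4-fold lower (15.6 to 17.2). SCN4B had 0 counts in Kelly and 127 in parental BE2C, at least 52.8-fold lower with the 3 counts that a count of 0 allows. Against the vector libraries the SCN3B gap was narrower, since those had 101 and 100.5 CPM, beside 31.5 CPM in Kelly.

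Of the calcium channel alpha1 genes, 2 of 6 were higher in Kelly and 1 lower. CACNA1C had 3443 counts in Kelly and 43 in parental BE2C, a ratio of 64.2 (47.6 to 88.9), and CACNA1G was 3.09-fold higher (2.64 to 3.64). CACNA1H had 22 counts in Kelly and 3918 in parental BE2C, 222-fold lower (146 to 355). CACNA1B stayed within 2-fold at a ratio of 1.90 (1.85 to 1.95), CACNA1D at 0.514 (0.475 to 0.555), and CACNA1I, low on both sides, at 0.267 of counts (0.161 to 0.429). Of the L-type pores CACNA1C alone was past 2-fold, and of the T-type pores CACNA1G was higher and CACNA1H lower.

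Among the accessory calcium channel genes, CACNA2D3 was 2.36-fold higher in Kelly (2.13 to 2.60), CACNA2D1 3.24-fold lower (3.12 to 3.36) and CACNA2D2 at a ratio of 0.995 (0.952 to 1.04). CACNB4 had 908 counts in Kelly and 14 in parental BE2C, a ratio of 52.0 (30.8 to 95.5). The other beta genes stayed within 2-fold, with ratios of 1.77 for CACNB1, 1.35 for CACNB3 and 1.11 for CACNB2. In the gamma family, CACNG7 had 2794 counts in Kelly and 1 in parental BE2C, a ratio of 2240 (402 to 88517), and CACNG8 had 1982 counts in Kelly and 2 in parental BE2C, a ratio of 795 (220 to 6566). Both genes lie on chromosome 19, as does CACNG6, which had 6 counts in Kelly and 0 in parental BE2C. CACNG4 was 4.11-fold higher in Kelly (3.82 to 4.42), and CACNG2, with 0 counts in Kelly and 200 in parental BE2C, at least 83.1-fold lower. CACNG5 had 91 counts in Kelly and 16 in parental BE2C, a ratio of 4.56 (2.66 to 8.31), and stayed within 2-fold on the scale with 1 CPM added.

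In the share at least 2-fold higher, the partner lists lay nearer to the 15.9% of all genes compared than the channel genes did. Their shares at least 2-fold lower went from 9.09% to 29.4%, beside 13.4% of all genes compared. Of 17 sodium channel partners 4 were at least 2-fold higher in Kelly than in parental BE2C (23.5%) and 3 lower (17.6%), and of 17 calcium channel partners 4 were higher (23.5%) and 5 lower (29.4%). Of the calcium release genes 2 of 12 were higher and 2 lower (16.7% each). In the REST complex 1 of 11 was higher and 1 lower (9.09% each). Among 9 genes of the sodium leak channel and other cation channels, 2 were higher and 2 lower (22.2% each). REST itself had 19.9 CPM in Kelly and 14.8 CPM in parental BE2C.

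Several of these ratios rest on the 1 parental library. With the mean of the vector libraries in its place, an alternative chosen after seeing the data, CACNA1B, SCN8A, CACNB1, CACNG5 and CACNA2D2 were also past 2-fold higher in Kelly, at log2 ratios of 2.42, 1.54, 1.55, 1.22 and 1.10. CACNA2D3 was then within 2-fold at 0.13, and also within it at 0.95 with 5 CPM added. CACNA1D stood at 0.13 against the vector mean, in place of -0.92. SCN2A, SCN3A, CACNA1G and CACNG4 stayed higher in Kelly at 2.19, 2.38, 2.70 and 2.81, and SCN3B stayed lower at -1.65.

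The genes called between LMO1 and vector went both ways between the lines. Of the 11 that rose with LMO1, 3 were at least 2-fold higher in Kelly than in parental BE2C (SCN2A, SCN3A and SCN4A). Another 4 were lower (SCN9A, CACNA1H, CACNA2D1 and CACNG2) and 4 were within 2-fold. Among all genes compared, 15.9% were at least 2-fold higher in Kelly and 13.4% lower. The split among all genes called higher with LMO1 was not computed. Of those that fell with LMO1, CACNA2D3 was at least 2-fold higher in Kelly than in parental BE2C, though not against the vector mean. SCN7A was within 2-fold on the scale with 1 CPM added. Kelly also had more LMO1 RNA than any BE2C library, as given above.

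The parental library was then set beside the mean of the vector libraries, to place the unmodified line. Of 23 channel genes compared, 6 were at least 2-fold higher in parental BE2C (26.1%) and 1 lower (4.35%), beside 8.11% and 2.88% of all genes compared. With 5 CPM added the counts were 3 and 0, beside 4.97% and 1.32% of all genes compared. The median log2 ratio was 0.67 over the members and 0.05 over all genes. SCN3B, at 515 CPM in parental BE2C, was 5.11-fold higher (4.95 to 5.28) and CACNG2 8.14-fold higher (5.32 to 13.0). CACNA1G was 3.72-fold higher, CACNA1B 2.87-fold, CACNA2D2 2.20-fold and CACNA1D 2.14-fold, and CACNA2D3 was 2.15-fold lower. Fibroblast markers summed to 131 CPM in parental BE2C and 30.9 and 33.7 CPM with vector, and their part was not tested. The comparison rests on 1 parental library and shares its vector libraries with the LMO1 comparison.

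Levels of different genes were set side by side per length, as CPM per kb of the longest GENCODE transcript. Summed over the sodium channel alpha genes, the level was 50.4 CPM per kb in Kelly, 17.1 and 17.2 with LMO1, 18.4 in parental BE2C, and 14.3 and 14.02 with vector. SCN9A made up 3.98% of that sum in Kelly, 47.5% and 48.9% with LMO1, 31.7% in parental BE2C, and 41.8% and 46.0% with vector. SCN8A made up 22.0% in Kelly, 19.3% and 19.6% with LMO1, 35.1% in parental BE2C, and 27.3% and 25.8% with vector. By the longest transcript, SCN4A and SCN1A in Kelly had nearly equal shares of 25.7% and 25.6%, followed by SCN8A and SCN3A (11.3%). In the vector libraries the order of mean levels was SCN9A at 6.21 ± 0.350 CPM per kb, SCN8A at 3.76 ± 0.189, SCN4A at 1.57 ± 0.136 and SCN3A at 1.01 ± 0.0796 (SD, n = 2), each gap larger than these spreads. With LMO1, SCN3A at 2.16 ± 0.0173 and SCN4A at 1.95 ± 0.178 stood in the reverse order, close together. These orders hold for the longest transcript alone. By the median transcript length SCN4A had 28.04 and 24.6 CPM per kb with LMO1 and 22.5 and 19.9 with vector. SCN9A had 24.6 and 25.4 with LMO1 and 18.01 and 19.5 with vector. By that length SCN4A led in both vector libraries and lay far above SCN3A in all 4. The median for SCN4A was 577 bases over 3 transcripts, beside 7805 bases for the longest, so its place there rests on this short length.

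**Figure D4:**
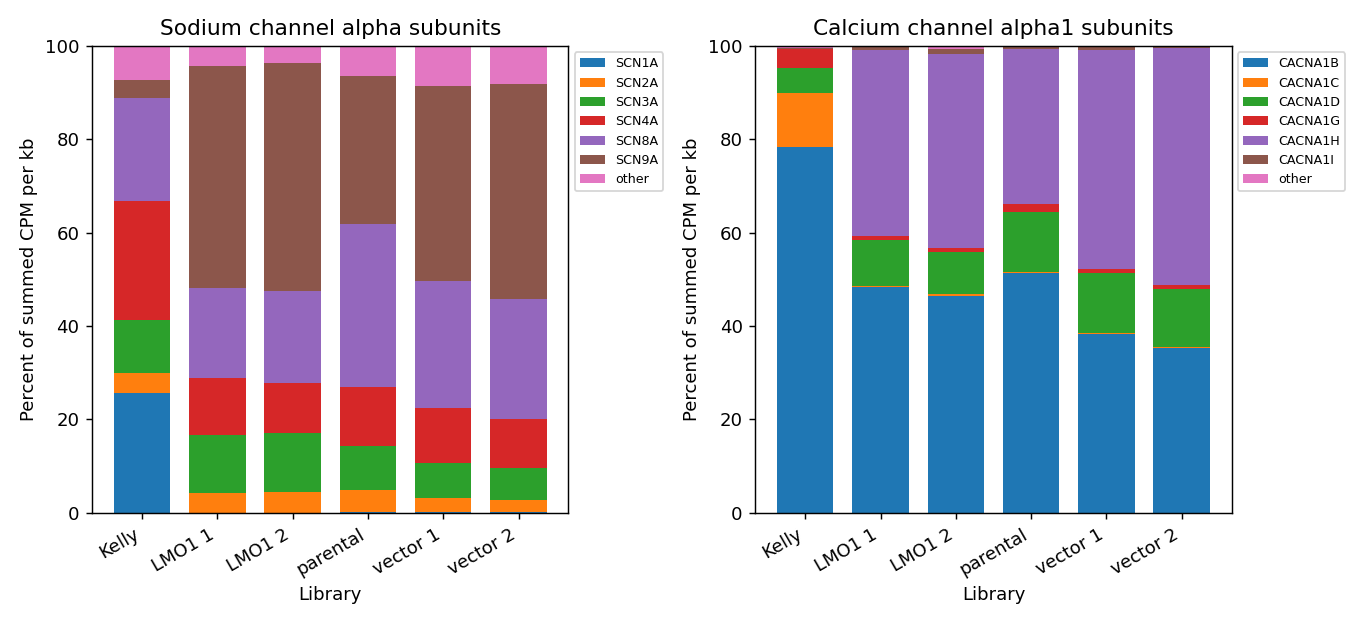
Share of the named genes, with the rest of each class pooled as other, in the summed CPM per kb of the sodium channel alpha genes (left) and the calcium channel alpha1 genes (right), y axis in percent, for the 6 libraries on the x axis. SCN9A takes 3.98% in Kelly and 31.7% to 48.9% in the BE2C libraries, and CACNA1H takes 0.120% in Kelly and 33.2% to 50.8% in the BE2C libraries.

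For the calcium channel alpha1 genes the sum was 37.4 CPM per kb in Kelly, 20.1 and 19.3 with LMO1, 30.1 in parental BE2C, and 14.2 and 15.04 with vector. CACNA1B made up 78.3% of it in Kelly, 48.3% and 46.5% with LMO1, 51.3% in parental BE2C, and 38.3% and 35.4% with vector. CACNA1H made up 0.120% in Kelly, 39.7% and 41.5% with LMO1, 33.2% in parental BE2C, and 47.0% and 50.8% with vector. By this length CACNA1B led the class with LMO1 and CACNA1H with vector. By the median transcript length CACNA1H led in both, at 12.1 and 12.2 CPM per kb with LMO1 and 10.2 and 11.7 with vector, beside 9.85 and 9.09 with LMO1 and 5.51 and 5.41 with vector for CACNA1B. CACNA1C made up 11.5% in Kelly. With the median transcript length in place of the longest, the SCN1A share in Kelly was 9.20%. Sodium channel beta RNA was nearly all SCN3B, with class sums of 5.20 CPM per kb in Kelly, 17.8 and 19.1 with LMO1, 85.9 in parental BE2C, and 17.7 and 17.6 with vector. Gamma-family sums were 45.6 CPM per kb in Kelly, 4.71 and 4.40 with LMO1, 7.68 in parental BE2C, and 3.33 and 3.35 with vector.

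Sodium channel genes SCN3A, SCN2A, SCN1A, SCN9A and SCN7A lie together on chromosome 2, with CSRNP3, GALNT3 and TTC21B among them. The cluster did not move as one. Between LMO1 and vector, SCN3A, SCN2A and SCN9A rose, SCN7A fell, and SCN1A was at 2 and 2 counts with LMO1 and 6 and 8 counts with vector and was not tested. Of the genes within, CSRNP3, a transcription factor gene, had a log2 fold change of -0.17 (SE 0.0665, adjusted p = 0.0413) and TTC21B, a cilium gene, -0.24 (SE 0.0791, adjusted p = 0.0176), both lower with LMO1. GALNT3 was below the test filter. On either side, COBLL1, B3GALT1 and STK39 were not called (log2 fold changes 0.03, -0.41 and 0.16, adjusted p = 0.894, 0.185 and 0.0948), and GRB14, SLC38A11 and XIRP2 were not tested. Between Kelly and parental BE2C, SCN1A, SCN3A and SCN2A were higher and SCN9A lower, GALNT3 had 2.55 CPM in Kelly and 0.293 CPM in parental BE2C, CSRNP3 31.0 CPM in Kelly and 47.9 CPM in parental BE2C, and TTC21B 62.9 CPM in Kelly and 38.9 CPM in parental BE2C.

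**Figure D5:**
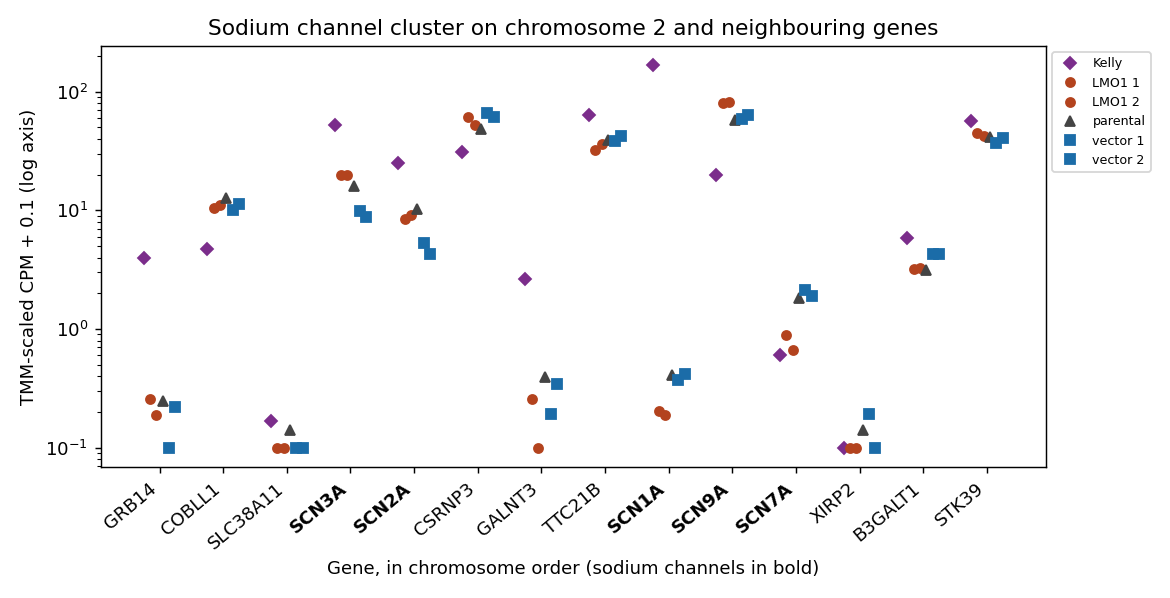
TMM-scaled CPM with 0.1 CPM added (y axis, log scale) of the sodium channel genes on chromosome 2 and their neighbours, in chromosome order on the x axis, with 1 point per library. Kelly lies at 167 CPM for SCN1A, where the BE2C libraries lie at or below 0.322 CPM, and below the BE2C libraries for SCN9A.

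The close relation of these genes leaves some room for reads counted under the wrong one. Of all windows of 50 bases in the longest transcripts, 5.55% in SCN3A, 3.85% in SCN2A, 3.70% in SCN9A and 2.11% in SCN1A also occurred in another channel gene, and 30 of the 40 members shared none. In the annotation, exons of 15 members overlap a gene on the opposite strand, among them CACNA1B, CACNA1C and SCN3A, and exons of 3 (CACNB4, CACNG8 and SCN2A) overlap another gene on the same strand. The strand setting of the counting is not given in the sources used here, so those reads cannot be assigned with certainty.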

How the data were processed

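Per the labels' protocols, all 6 libraries came from column-purified total RNA, and a stranded total RNA kit with paired-end reads was used. The deposited values are unnormalized read counts, 1 row for each gene symbol. The submitters' processing notes name TopHat2 2.0.6, HTSeq and hg19, and the annotation, strand setting and filters are not given in the sources used here. From these counts, LMO1 and vector libraries were compared in R 4.3.3 with edgeR 4.0.16 (TMM, filterByExpr by group with 15480 genes kept and 9890 removed, quasi-likelihood F test, Benjamini-Hochberg adjustment over all genes tested, called below 0.05). Single libraries were compared as log2 ratios of CPM with 1 CPM added, at least 1 CPM on either side and a 2-fold threshold, with exact conditional 95% intervals on counts, and no p was computed. Floors and intervals cover counting error only, since they rest on the counts and hold no spread between libraries or cultures. Reads carried no molecular identifiers. The chi-square over genes, per degree of freedom, was 2.84 for the LMO1 pair, 2.70 for the vector pair and 18.5 between LMO1 1 and vector 1, above sampling noise in each case, so each library counted as 1 sample. The common biological coefficient of variation was 3.60%, with 2 residual and 43.7 prior degrees of freedom. The code was tested on simulated data. Transcript lengths came from GENCODE release 29, and gene order and promoters from RefSeq. Because the counts are on hg19, only promoter coordinates are printed. Channel genes with at least 1 CPM in any library are named with every library, except a few genes of the lists that are not reported here. From the other lists, called genes with the 4 lowest adjusted p are named, and around the chromosome 2 cluster the genes within it and 3 on either side. The members and lists were chosen with earlier results of these data known. Alternatives were RLE and total-count scaling, limma-voom (limma 3.58.1), DESeq2 1.42.0, other filters, a replicate block, leaving out each library, other added CPM values and the median transcript length.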

Additional observations from a re-analysis of the deposited data

How the results depend on the processing

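Between LMO1 and vector, 12 alternatives were run. The called channel genes had no overlap between these groups, so an alternative could hardly change their sign. All 14 called channel genes kept their sign under each, and 6 kept their call under each (CACNA1B, CACNB3, CACNG2, SCN2A, SCN3A and SCN9A). The remaining 8 lost it under at least 1. DESeq2 called 7 channel genes higher in place of 11, and 2970 genes of all in place of 4797. Leaving out 1 library gave 8 to 10 genes higher and 1 to 3 lower (1 without LMO1 2), and 3493 to 3636 of all genes called. Here the group with 1 library is assumed to vary like the other. With the replicate number as a block the counts were 11 higher and 3 lower. The deviations of same-numbered libraries had a correlation of -0.0227, so the numbers were not taken as pairs. Between Kelly and parental BE2C with 5 CPM added, 9 genes in place of 13 were higher and 4 in place of 7 lower. The shares of all genes were then 9.45% and 8.68%. With at least 5 CPM on either side, 12 were higher and 4 lower of 23 compared, beside 15.3% and 13.4% of all genes. With the vector mean in place of the parental library, an alternative chosen after seeing the data, 17 were higher and 6 lower of 28 compared, beside 21.8% and 15.3% of all genes. For parental BE2C against vector with 5 CPM added, 3 genes in place of 6 were higher and 0 in place of 1 lower. The shares of all genes were then 4.97% and 1.32%. When a vector library was left out, 6 to 7 were higher, beside 8.38% to 8.53% of all genes. Of 273 single-library ratios recomputed, 23 changed side of the 2-fold threshold and 5 changed sign, among them CACNA1D and CACNA2D2 against the vector mean. None of the 5 was past 2-fold before. With the median transcript length the share of CACNA1B in Kelly was 58.7% in place of 78.3%, of CACNA1H in vector 1 40.5% in place of 47.0%, of SCN1A in Kelly 9.20% in place of 25.6%, and of SCN9A in vector 1 31.2% in place of 41.8%. Genes near 1 CPM, such as CACNA1I and SCN7A, rest on few counts, and a count of 0 does not show absence.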
